A study of Danio rerio with 4 samples.

Results

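The H3K4me3 peaks that lie within 2 Mb of a chromosome end were described and set beside the peaks of the chromosome interiors. They were chosen by position alone. On each of 24 zebrafish chromosomes (1 to 25 except 4), a peak was taken if its start was below 2000000 or if its end lay within 2 Mb of the last position listed for that chromosome in either peak list. The rule took 6061 of the 52123 peaks on chromosomes 1 to 25. They were 3957 of 34889 peaks in the DN list and 2104 of 17234 peaks in the Ctrl list. The interiors held 29285 DN peaks and 14001 Ctrl peaks, and chromosome 4, which was left out, held 1647 DN peaks and 1129 Ctrl peaks.

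Both lists came from whole ventricles at 7 days post-amputation (dpa), with the atrium and outflow tract removed. DN fish carried the transgene ubi:loxp-DsRed-STOP-loxp-DN-xBrg1 together with the driver kdrl:CreER, and Ctrl fish carried ubi:loxp-DsRed-STOP-loxp-DN-xBrg1 without the driver. Fish of both groups were given 4-hydroxytamoxifen (4-HT) before amputation. The results of the paper give this as 3 days before surgery, whereas its methods give a shorter bath with amputation 3 days after treatment. In DN hearts, CreER driven by the endothelial kdrl promoter removes the DsRed-STOP cassette, and the ubi promoter then expresses a dominant-negative *Xenopus* Brg1. Recombination was thus directed to endothelial cells, whereas the chromatin came from all cells of the ventricle, and marker genes of the tissue were not analysed here. A ChIP experiment used a pool of about 25 hearts, and each group had 1 H3K4me3 library. No difference between DN and Ctrl given here therefore has a replicate check, and no test between them was made. Input libraries were not analysed here.

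H3K4me3, the trimethylation of lysine 4 on histone H3, is placed mainly on nucleosomes around active transcription start sites, so its peaks tend to be dense where active genes are dense. Brg1 is the ATPase of the SWI/SNF complex, which uses the energy of ATP to move or evict nucleosomes. The end of a chromosome is the telomere, a tract of short repeats, and the region next to it often holds duplicated sequence in which short reads are hard to place uniquely. The assemblies of such regions are less complete than those of the chromosome arms. Positions are given on GRCz11, counted from 1, and the genes at them were not analysed here.

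The low end of a chromosome is used here for the side where coordinates begin and the high end for the side where they stop. The 48 ends made up 96 Mb, which was 7.58% of the length of the 24 chromosomes, and held 11.9% of their DN peaks and 13.1% of their Ctrl peaks. The interiors made up 1170.4 Mb. Intervals are exact 95% intervals that cover counting error only, because neighbouring peaks are not independent of each other and are not replicates.

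H3K4me3 peaks were denser at the ends than in the interiors in both lists. The DN list had 41.2 peaks per Mb at the ends and 25.0 peaks per Mb in the interiors, a ratio of 1.65 (interval 1.59 to 1.70). The Ctrl list had 21.9 peaks per Mb at the ends and 12.0 peaks per Mb in the interiors, a ratio of 1.83 (interval 1.75 to 1.92). The same held for the length under peaks. DN peaks covered 3.73% of the ends and 2.16% of the interiors, and Ctrl peaks covered 1.496% of the ends and 0.841% of the interiors.

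The greater density was spread over the chromosomes. In the DN list the ends of 23 of 24 chromosomes were denser than the interior of the same chromosome, and the ratio had a median of 1.57. The exception was chromosome 24. In the Ctrl list the ends were denser on 24 of 24 chromosomes, with ratios between 1.12 and 4.10 and a median of 1.72. Taken singly, 42 of the 48 ends were denser than their own interior in the DN list and 46 of 48 in the Ctrl list.

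**Figure D1:**
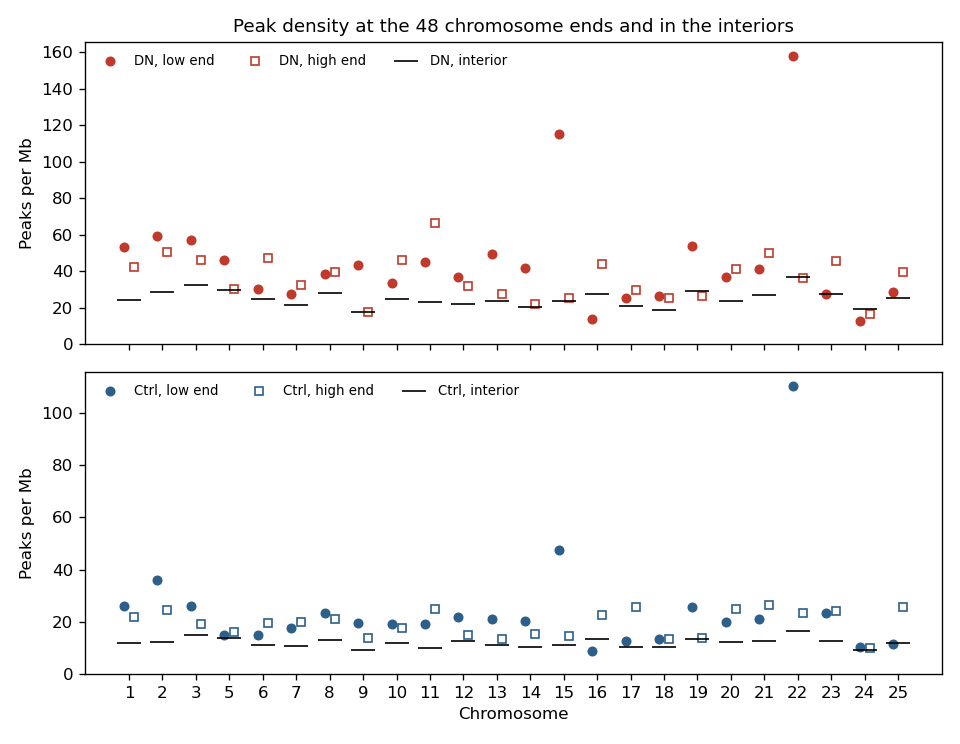
Peaks per Mb (y axis) at the low end (filled circles), the high end (open squares) and in the interior (black bars) of each of 24 chromosomes (x axis), for the DN list (upper panel) and the Ctrl list (lower panel), with 1 library per list. The low end of chromosome 22 stands at 158 peaks per Mb in DN and 110.5 peaks per Mb in Ctrl, far above the medians of the 48 ends, 39 and 20 peaks per Mb.

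Single ends differed widely in their number of peaks. The DN list had 25 to 316 peaks at an end, with a median of 78, and the Ctrl list had 18 to 221 peaks, with a median of 40. The low end of chromosome 22 was the densest in both lists, with 316 DN peaks and 221 Ctrl peaks. It alone held 7.99% of all DN end peaks and 10.5% of all Ctrl end peaks. The next densest ends of the DN list were the low end of chromosome 15, with 230 DN peaks and 95 Ctrl peaks, and the high end of chromosome 11, with 133 DN peaks and 50 Ctrl peaks. The sparsest ends of the DN list were the low end of chromosome 24, with 25 DN peaks and 21 Ctrl peaks, the low end of chromosome 16, with 28 DN peaks and 18 Ctrl peaks, and the high end of chromosome 24, with 33 DN peaks and 20 Ctrl peaks. The 2 ends of chromosome 24 were thus both among the 3 sparsest.

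Over all chromosomes the low ends held more peaks than the high ends, and this depended largely on 2 low ends. There were 45.8 DN peaks per Mb at the low ends and 36.6 DN peaks per Mb at the high ends, a ratio of 1.25 (interval 1.18 to 1.33). There were 24.4 Ctrl peaks per Mb at the low ends and 19.5 Ctrl peaks per Mb at the high ends, also a ratio of 1.25 (interval 1.15 to 1.37). Chromosome by chromosome, the low end was the denser one on 12 of 24 chromosomes in the DN list and on 13 of 24 in the Ctrl list. Without the low ends of chromosomes 15 and 22, a comparison chosen after seeing the data, the ratio of low to high ends was 1.03 in DN (interval 0.960 to 1.099) and 0.997 in Ctrl (interval 0.908 to 1.096). This took out the 2 densest low ends and no high end, so the ratio had to fall. Leaving out the whole of chromosome 22 gave 1.12 in DN (interval 1.05 to 1.19) and 1.07 in Ctrl (interval 0.975 to 1.17). Leaving out the whole of chromosome 15 gave 1.15 in DN and 1.19 in Ctrl. The ends without the low ends of chromosomes 15 and 22 were still denser than the interiors, 1.48 times in DN and 1.62 times in Ctrl.

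Density was highest next to the end itself and lower from 0.5 Mb inward. In the outermost 0.25 Mb the DN list had 64.5 peaks per Mb and the Ctrl list had 36.7 peaks per Mb, which was 2.58 times and 3.07 times the density of their interiors. Over the outermost 0.5 Mb the values were 62.3 DN peaks per Mb and 32.8 Ctrl peaks per Mb. Between 0.5 and 1 Mb the density was 38.7 DN peaks per Mb and 19.1 Ctrl peaks per Mb, and between 1 and 1.5 Mb it was 31.9 DN peaks per Mb and 16.3 Ctrl peaks per Mb. The outermost 0.5 Mb thus stood highest above the interiors. The decline did not go on evenly, since from 1.5 to 1.75 Mb there were 37.2 DN peaks per Mb and 23.5 Ctrl peaks per Mb. Without chromosomes 15 and 22 this step was at 31.6 DN peaks per Mb and 17 Ctrl peaks per Mb.

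The limit at 2 Mb did not fall on an edge of the profile. Just inside it, from 1.75 to 2 Mb, the DN list had 26.6 peaks per Mb and the Ctrl list 15.3 peaks per Mb. In the 0.25 Mb just outside it there were 31.3 DN peaks per Mb and 17.9 Ctrl peaks per Mb. A second, broad maximum lay between 2 and 3 Mb, at 39.0 DN peaks per Mb and 19.3 Ctrl peaks per Mb. This was 1.56 times and 1.61 times the density of their interiors. In the Ctrl list the highest step there, from 2.5 to 2.75 Mb, had 21.9 peaks per Mb. The mean of the Ctrl list from 2 to 3 Mb was close to its 19.4 peaks per Mb from 1.5 to 2 Mb. From 3 to 5 Mb the density was close to that of the interiors, at 24.2 DN peaks per Mb and 12.3 Ctrl peaks per Mb.

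The step within the outermost 0.5 Mb did not depend on chromosomes 15 and 22. Without them it was at 61.9 DN peaks per Mb and 31.9 Ctrl peaks per Mb. The density between 2 and 3 Mb was lower without them, at 33.9 DN peaks per Mb and 15.8 Ctrl peaks per Mb. Both sides of the chromosomes shared the outer step. The DN list had 64.0 peaks per Mb in the outermost 0.5 Mb of the low ends and 60.6 peaks per Mb in that of the high ends, and the Ctrl list had 33.5 and 32.1 peaks per Mb there.

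**Figure D2:**
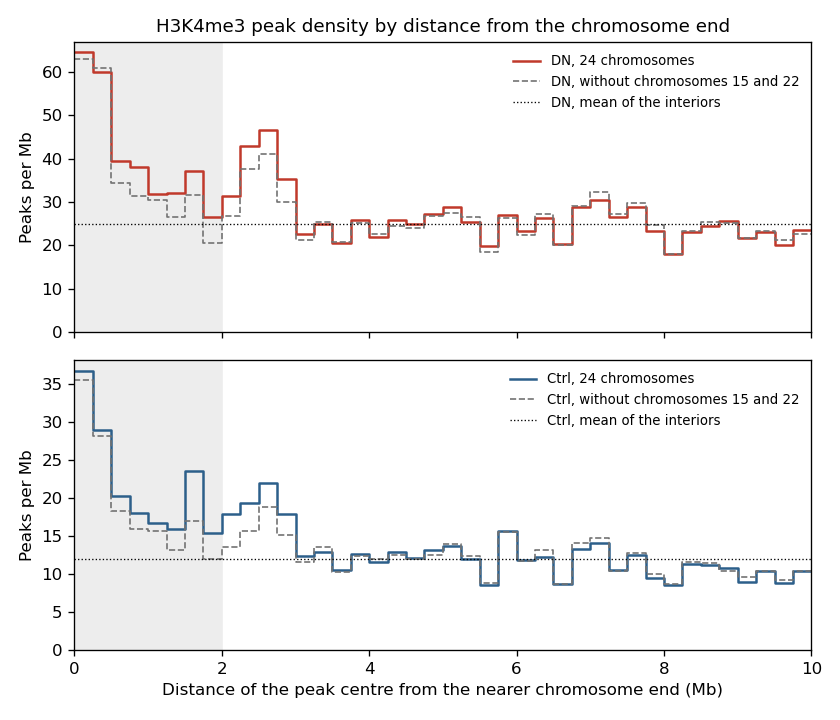
Peaks per Mb (y axis) in steps of 0.25 Mb against the distance of the peak centre from the nearer chromosome end in Mb (x axis), for the DN list (upper panel) and the Ctrl list (lower panel). Solid lines show 24 chromosomes, dashed lines leave out chromosomes 15 and 22, dotted lines mark the mean of the interiors, and the grey band marks the outer 2 Mb; both lists are highest in the first step, at 64.5 DN peaks per Mb and 36.7 Ctrl peaks per Mb.

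The outermost 0.5 Mb was denser than the interior of the same chromosome at 46 of 48 ends in the DN list and at 45 of 48 ends in the Ctrl list. The DN list had 4 to 66 peaks there, with a median of 29 and the most at the high end of chromosome 11. The Ctrl list had 3 to 43 peaks there, with a median of 15.5 and the most at the low end of chromosome 2. The low end of chromosome 17 had the fewest in both lists. The densest single end, the low end of chromosome 22, held 48 DN peaks and 38 Ctrl peaks in its outermost 0.5 Mb, and the most closely set stretch of this end lay farther in and is described with the dense runs of peaks.

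Peaks were found close to the first base of most chromosomes. At the 24 low ends the outermost DN peak began a median of 13.8 kb from the start of the chromosome, between 0.195 kb and 308 kb, and the outermost Ctrl peak a median of 15.2 kb, between 0.541 kb and 134 kb. The DN peak was the nearer one at 17 of the 24 low ends. There were 1.88 DN peaks per Ctrl peak at the low ends and at the high ends. A longer list tends to hold the outermost peak more often, and the part of list length in this count was not tested. The DN peak nearest to a chromosome start lay on chromosome 1 from 196 to 617, and no Ctrl peak overlapped it. The nearest Ctrl peak lay on chromosome 22 from 542 to 1380, and it overlapped a DN peak. The low end of chromosome 5 was an exception, since its first DN peak began 308 kb from the start, against 36.2 kb for its first Ctrl peak. At the high ends the end itself was set by the last listed peak, a DN peak on 19 of 24 chromosomes, so distances there start at a peak by construction. With the low ends also counted from the first listed peak, the ends held 3968 DN peaks and 2109 Ctrl peaks.

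The spacing of peaks showed the same order. From the start of one peak to the start of the next, the median distance in the DN list was 6625 bp at the ends and 9749 bp in the interiors. In the Ctrl list it was 14661 bp at the ends and 31456 bp in the interiors. Of the 960 windows of 100 kb at the ends, 20.8% held no DN peak, against 33.8% of the other windows, and 31.8% held no Ctrl peak, against 46.6% of the other windows. Stretches without a peak were thus less common at the ends, but they did occur in both lists.

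The DN list was longer than the Ctrl list in both regions, and less so at the ends than in the interiors. There were 1.88 DN peaks for each Ctrl peak at the ends (interval 1.78 to 1.98) and 2.09 in the interiors (interval 2.05 to 2.13). The ratio at the ends was 0.899 times that in the interiors (interval 0.849 to 0.952). There were 1.88 DN peaks per Ctrl peak at the low ends and also 1.88 at the high ends, and the interval of the ratio between them ran from 0.897 to 1.11. The DN to Ctrl ratio of the length under peaks was 2.49 at the ends and 2.57 in the interiors.

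Across chromosomes the difference between ends and interiors was uneven. The DN to Ctrl ratio was lower at the ends than in the interior on 15 chromosomes and higher on 9. The ratio of ends to interior had a median of 0.917 and ranged from 0.640 to 1.13. Of the 48 single ends, 31 were below the interior of their own chromosome. Without chromosome 22 the ratio at the ends was 0.933 times that in the interiors, and without the low ends of chromosomes 15 and 22 it was 0.912 times (interval 0.858 to 0.970).

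The DN list had more peaks than the Ctrl list at 48 of 48 ends, with ratios from 1.16 to 3.07 and a median of 1.89. The ratio was highest at the low end of chromosome 5, at 3.07 (92 DN peaks and 30 Ctrl peaks, interval 2.01 to 4.80), the high end of chromosome 11, at 2.66 (interval 1.91 to 3.76), and the high end of chromosome 10, at 2.63 (92 DN peaks and 35 Ctrl peaks, interval 1.76 to 4.00). It was lowest at the high end of chromosome 17, at 1.16 (59 DN peaks and 51 Ctrl peaks, interval 0.782 to 1.72), the low end of chromosome 23, at 1.17 (55 DN peaks and 47 Ctrl peaks, interval 0.778 to 1.77), and the low end of chromosome 24, at 1.19 (25 DN peaks and 21 Ctrl peaks, interval 0.640 to 2.24). The interval of counting error included 1 at 7 of the 48 ends, these 3 and the high ends of chromosomes 9, 14 and 24 and the low end of chromosome 16. With 1 library per group and neighbouring peaks not independent, an excess of DN peaks was not tested at any end. The 2 ends with the most DN peaks lay apart in this measure, with 1.43 at the low end of chromosome 22 (interval 1.20 to 1.71) and 2.42 at the low end of chromosome 15 (interval 1.90 to 3.11).

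**Figure D3:**
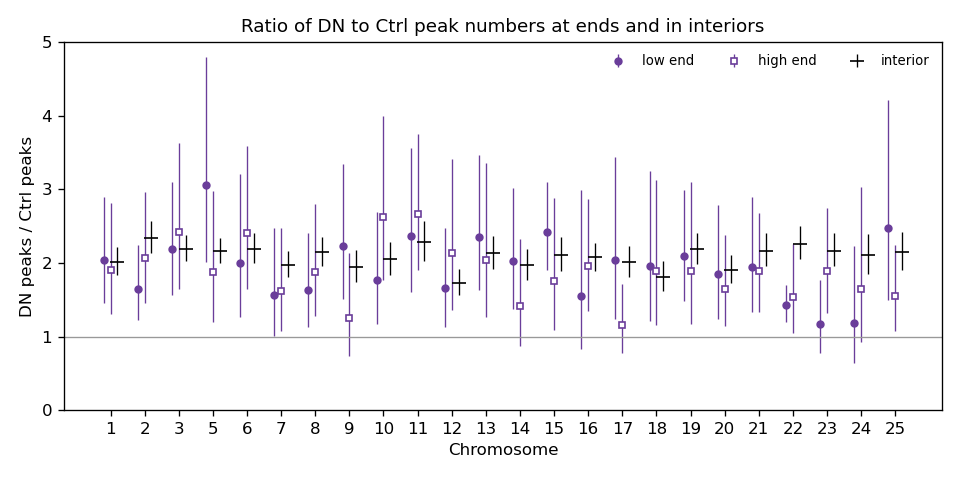
Number of DN peaks per Ctrl peak (y axis) at the low end (filled circles), the high end (open squares) and in the interior (black bars) of each chromosome (x axis), with vertical lines for exact 95% intervals of counting error. The 48 ends range from 1.16 to 3.07, and 31 of them lie below the interior of their own chromosome.

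The number of DN peaks depended on the depth that a peak needed. The fold and the significance that the caller gave each peak allow the mean depth of fragments over the peak to be recovered. By that mean depth, which is not the number of fragments in a peak, the DN peaks began at 7 and the Ctrl peaks at 8. These depths are before scaling, which was 1 in DN and 0.914 in Ctrl. With DN peaks of a mean depth of at least 8 only, 2211 DN peaks stood against 2104 Ctrl peaks at the ends, a ratio of 1.05 (interval 0.990 to 1.12). This filter took out DN peaks and no Ctrl peak, so the ratio had to fall. The position of the ends relative to the interiors moved less, to 0.896 times. A filter on significance moved the ratio the other way. The caller gives each peak a significance as −log10 q, where q is the p-value adjusted for multiple testing. When this had to be 4 or more, there were 716 DN peaks and 202 Ctrl peaks at the ends, a ratio of 3.54 (interval 3.03 to 4.16). In the interiors 6010 DN peaks and 1467 Ctrl peaks passed this filter. The ratio at the ends was 0.865 times that in the interiors, so the rise was not particular to the ends. A −log10 q of 4 need not be the same bar in both lists, whose recovered background depth was 1.79 in DN and 1.64 in Ctrl. The size of the DN excess thus depended on which peaks were counted, at the ends as in the interiors.

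A peak that shared at least 1 bp with a peak of the other list is called Overlapped, and the others DN-Specific or Ctrl-Specific. On all 25 chromosomes 31.5% of DN peaks and 67% of Ctrl peaks were Overlapped. At the ends 1308 of 3957 DN peaks were Overlapped, which was 33.1% (interval 31.6 to 34.5), against 31.0% in the interiors (interval 30.5 to 31.5). The odds of overlap were 1.099 times those in the interiors (interval 1.023 to 1.18), and 1.06 times without the low ends of chromosomes 15 and 22 (interval 0.982 to 1.15). Among Ctrl end peaks 1415 of 2104 were Overlapped, which was 67.3% (interval 65.2 to 69.3), against 68.0% in the interiors (interval 67.3 to 68.8), with odds of 0.965 times (interval 0.874 to 1.07). Without the low ends of chromosomes 15 and 22 the Ctrl share was 65.7%, with odds of 0.898 times those in the interiors. The interval of these odds, 0.809 to 0.998, excludes 1. With all ends counted, the share was near the background in both lists. The ends held 2649 DN-Specific and 689 Ctrl-Specific peaks.

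Within the ends, sharing was higher in the outermost 0.5 Mb, a limit chosen after seeing the profile, than from 0.5 to 2 Mb as a whole. In the outermost 0.5 Mb, 35.6% of 1495 DN peaks were Overlapped (interval 33.2 to 38.1) and 73.7% of 787 Ctrl peaks (interval 70.5 to 76.7). The odds relative to the interiors were 1.23 times in DN (interval 1.101 to 1.37) and 1.32 times in Ctrl (interval 1.12 to 1.56). Without chromosomes 15 and 22 they were 1.18 times in DN (interval 1.05 to 1.33) and 1.32 times in Ctrl (interval 1.11 to 1.57). Peaks also covered more of this zone than of the interiors, 5.98% under DN peaks and 2.43% under Ctrl peaks, and the part of this in the higher sharing was not tested.

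From 0.5 to 2 Mb the lists were shared less. There, 63.4% of 1317 Ctrl peaks were Overlapped (interval 60.7 to 66.0), with odds of 0.814 times those in the interiors (interval 0.723 to 0.917), and 0.707 times without chromosomes 15 and 22 (interval 0.619 to 0.808). Of 2462 DN peaks 31.5% were Overlapped, with odds of 1.025 times (interval 0.936 to 1.12). The near equality of ends and interiors in the Ctrl list was thus made of a higher share next to the end and a lower share behind it. The lower share was not particular to the ends. In the steps of the profile from 2 to 3 Mb, 61.7% to 71.2% of Ctrl peaks were Overlapped. In the steps from 3 to 5 Mb it was 54.0% to 65.8%, below the 68.0% of the interiors as a whole.

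**Figure D4:**
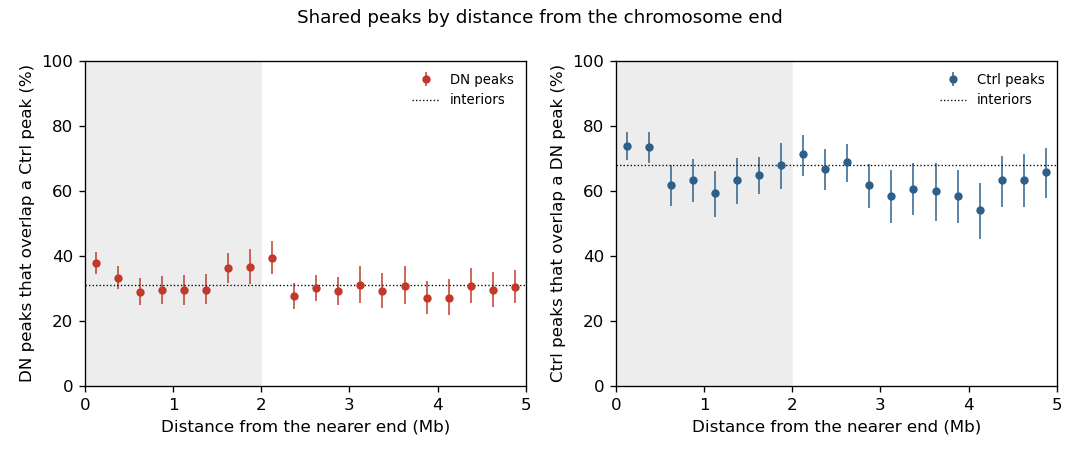
Share of Overlapped peaks in the DN list (left) and in the Ctrl list (right), in percent (y axes), in steps of 0.25 Mb from the nearer chromosome end (x axes, Mb). Vertical lines are exact 95% intervals of counting error, dotted lines mark the interiors (31.0% in DN and 68.0% in Ctrl) and the grey band marks the outer 2 Mb; the 2 outermost steps of the Ctrl list lie above the dotted line.

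In the DN list 33.0% of peaks at the low ends and 33.1% at the high ends were Overlapped, with an odds ratio of 0.994 (interval 0.868 to 1.14). In the Ctrl list 69.0% of peaks at the low ends and 65.1% at the high ends were Overlapped, and the interval of their odds ratio, 1.19, ran from 0.988 to 1.44. Single ends ranged from 21.7% to 50.8% in the DN list and from 38.3% to 84.2% in the Ctrl list. The highest DN share was at the high end of chromosome 17, which also had the lowest DN to Ctrl ratio. For a given Ctrl share, fewer DN peaks per Ctrl peak tend to give a higher DN share, so these are not separate observations. The lowest Ctrl share was at the low end of chromosome 23. At the low end of chromosome 22, 46.8% of DN peaks and 81.9% of Ctrl peaks were Overlapped, against 25.7% and 63.2% at the low end of chromosome 15.

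End peaks had nearly the same width as interior peaks. The median width in the DN list was 611 bp at the ends (interval 592 to 630) and 596 bp in the interiors (interval 590 to 603). In the Ctrl list it was 507.5 bp at the ends (interval 493 to 534) and 505 bp in the interiors (interval 496 to 513). Overlapped peaks were the wider ones in both lists, with 1161 bp against 477 bp for DN-Specific end peaks and 589 bp against 388 bp for Ctrl-Specific end peaks. The interiors were alike, with 1164 bp against 472 bp in DN and 587 bp against 356 bp in Ctrl. A wider peak also meets a peak of the other list more easily, and the part of this was not tested. At the low ends peaks were wider than at the high ends, with medians of 639.5 bp and 579 bp in DN and 550 bp and 469 bp in Ctrl. Without the low ends of chromosomes 15 and 22, the median at the low ends was 599 bp in DN and 530 bp in Ctrl.

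Domains of 3 kb or more were unevenly placed among the ends. There were 144 of them in the DN list, or 3.64% of end peaks (interval 3.08 to 4.27), against 3.03% of interior peaks. The low ends held 102 and the high ends 42, an odds ratio of 1.98 (interval 1.36 to 2.93). Without the low ends of chromosomes 15 and 22, the low ends held 58 of them. This was 3.51% of their DN peaks (interval 2.67 to 4.51), against 2.39% at the high ends (interval 1.73 to 3.22). For all ends without those 2, the odds of such a width were 0.967 times those in the interiors (interval 0.776 to 1.19). In the Ctrl list 24 end peaks, or 1.14%, were that wide, against 1.23% of interior peaks.

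Where a single DN peak met a single Ctrl peak, the DN peak was usually the wider one, at the ends as in the interiors. The ends held 1151 such pairs, with median widths of 1048 bp in DN and 570 bp in Ctrl and a median ratio within pairs of 1.61 (quartiles 1.09 and 2.76). The DN peak was wider in 923 of them, or 80.2% (interval 77.8 to 82.5), against 82.5% of the 8362 interior pairs (interval 81.7 to 83.3), whose median ratio was 1.66. Low and high ends had median ratios of 1.62 and 1.61. DN peaks that spanned several Ctrl peaks made up 2.88% of DN end peaks (114 peaks, interval 2.38 to 3.45), against 1.76% of interior DN peaks. The higher share came from the low ends, with 83 such peaks, or 3.77% of their DN peaks. The high ends held 31, or 1.76%, close to the interiors. Of the 114 at the ends, 30 lay at the low end of chromosome 22. Without the low ends of chromosomes 15 and 22, the share over all other ends, low and high, was 2.35% (interval 1.86 to 2.91).

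The median strength of end peaks was close to that of interior peaks. For the medians and ranks given here, the fold over the genome-wide background and the −log10 q were read only within a list. The median fold at the ends and in the interiors was 3.30 and 3.31 in DN and 3.60 and 3.65 in Ctrl. The median −log10 q was 2.04 and 2.06 in DN and 1.96 and 2.05 in Ctrl. No end peak was among the 10 strongest of either list, which allows a share of up to 30.8% in each. End peaks were 6 of the 100 strongest DN peaks (6%, interval 2.23 to 12.6) and 2 of the 100 strongest Ctrl peaks (2%, interval 0.243 to 7.04). Of the 1000 strongest, 11.2% in DN (interval 9.31 to 13.3) and 10.8% in Ctrl (interval 8.94 to 12.9) were end peaks. End peaks made up 11.3% of the whole DN list and 12.2% of the whole Ctrl list, so that only the share among the 100 strongest Ctrl peaks had an interval below the share in its list.

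A −log10 q of at least 4 was reached by 716 DN end peaks, or 18.1%, against 20.5% of interior peaks, with odds of 0.856 times (interval 0.784 to 0.933). Without the low ends of chromosomes 15 and 22 the odds were 0.952 times (interval 0.870 to 1.04). In the Ctrl list 202 end peaks, or 9.60%, reached it, against 10.5% of interior peaks, with odds of 0.907 times (interval 0.773 to 1.06). Peaks at the low ends reached it less often than those at the high ends, in 15.9% against 20.8% of DN peaks (odds ratio 0.719, interval 0.609 to 0.849) and in 7.61% against 12.1% of Ctrl peaks (odds ratio 0.598, interval 0.441 to 0.809). Without the low ends of chromosomes 15 and 22 the shares at the low ends were 18.6% in DN (odds ratio 0.866 to the high ends, interval 0.729 to 1.03) and 9.37% in Ctrl (odds ratio 0.751, interval 0.547 to 1.03), and both intervals include 1.

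The 2 strongest end peaks lay at the same places in both lists. The strongest DN end peak lay on chromosome 17 from 53383496 to 53383812, 74.7 kb from the high end, with a fold of 19.8 and a −log10 q of 60.1. The Ctrl peak over it, from 53383468 to 53383814, was the strongest of the Ctrl end peaks, with a fold of 21.97 and a −log10 q of 66.7. These 2 peaks were narrow, at 317 bp in DN and 347 bp in Ctrl.

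The next in both lists lay on chromosome 19, from 455257 to 456495 in DN (fold 11.7, −log10 q 26.6) and from 455272 to 456508 in Ctrl (fold 14.1, −log10 q 33.6). The third DN peak was on chromosome 5 from 826169 to 826802, with a fold of 10.8 and a −log10 q of 23.9, and met a Ctrl peak. The third Ctrl peak was on chromosome 7 from 5152 to 8663, with a fold of 10.1 and a −log10 q of 20.2. It began 5.15 kb from the start of the chromosome and met a DN peak of 3420 bp. Each of these places carried a peak in both lists.

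The strongest specific end peaks were weaker than these. The 3 strongest DN-Specific ones lay on chromosome 19 from 48106309 to 48106544 (236 bp, −log10 q 10.96), on chromosome 10 from 45031370 to 45031784 (415 bp, −log10 q 10.7) and on chromosome 10 from 1681560 to 1682130 (571 bp, −log10 q 9.90). The nearest Ctrl peak was 10.8 kb, 28.0 kb and 12.5 kb away from them. The 3 strongest Ctrl-Specific ones lay on chromosome 2 from 57625370 to 57625744 (375 bp, −log10 q 7.02), on chromosome 23 from 996394 to 996653 (260 bp, −log10 q 6.204) and on chromosome 22 from 37616854 to 37617134 (281 bp, −log10 q 6.06). The distance to the closest DN peak was 14.2 kb, 37.0 kb and 0.862 kb. Chromosome 10 thus gave a strong DN-Specific peak at each of its ends.

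The widest DN end peak lay on chromosome 22 from 1719824 to 1732334. It was 12511 bp wide and spanned 5 Ctrl peaks, and its −log10 q was only 2.78. The widest Ctrl end peak lay on chromosome 1 from 510972 to 515641 and was 4670 bp wide. The DN peak over it was 7339 bp wide.

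Runs of densely set peaks were looked for in windows of 100 kb, with at least 20 DN peaks as the limit, a definition made after seeing the data. Since DN peaks picked the windows, the DN numbers and DN to Ctrl ratios of the runs are raised by that choice. They only describe the runs. Such windows numbered 50 of 12676 in all, and 15 of them lay in the ends, where they made up 1.56% of windows against 0.299% elsewhere. The low ends of chromosomes 15 and 22 held 11 of the 15. The longest run lay on chromosome 22 from 1300001 to 3000000, with 17 such windows in a row, so that it crossed the 2 Mb limit. No other run was longer than 4 windows.

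The run on chromosome 22 was dense in both lists. It held 466 DN peaks and 307 Ctrl peaks, a ratio of 1.52 (interval 1.31 to 1.76), with 21 to 32 DN peaks and 8 to 29 Ctrl peaks in each window. DN peaks there had a median width of 1155.5 bp and covered 47.9% of the run, and Ctrl peaks had a median width of 694 bp and covered 15.6% of it. It held 69 DN domains of 3 kb or more. Of its Ctrl peaks 92.2% were Overlapped (interval 88.6 to 94.9) and of its DN peaks 49.8%. With so much of the run under DN peaks, a Ctrl peak placed there has a large target to meet, and the part of this in the share was not tested.

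The rest of this low end, its outer 1.3 Mb, held 125 DN peaks and 77 Ctrl peaks, or 96.2 DN peaks per Mb and 59.2 Ctrl peaks per Mb, and was thus also above the medians of the ends. The run was dense on both sides of the 2 Mb limit. Inside the end it held 191 DN peaks and 144 Ctrl peaks, a ratio of 1.33 (interval 1.06 to 1.66), with 90.3% of Ctrl peaks Overlapped. Beyond the limit it held 275 DN peaks and 163 Ctrl peaks, a ratio of 1.69 (interval 1.38 to 2.06), with 93.9% of Ctrl peaks Overlapped. The run on chromosome 15, from 700001 to 1100000, differed from it in sharing and coverage. In windows picked by their DN peaks, it held 102 DN peaks and 36 Ctrl peaks, a ratio of 2.83 (interval 1.92 to 4.27). Its DN peaks had a median width of 728 bp, covered 26.6% of it and were Overlapped in 24.5% of cases. Whether the sequence of either run is repeated in the genome was not analysed here, and its part in the number of peaks was not tested.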

How the data were processed

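H3K4me3 ChIP-seq of DN and Ctrl ventricles was used as 2 peak lists, 1 library each. The authors trimmed reads with Trimmomatic 0.39, aligned them to GRCz11 with STAR 2.7.8a keeping unique alignments, removed duplicates with Picard 2.25.0, drew equal numbers of read pairs from each condition and called broad peaks with MACS2 without local background. The q cutoff that the paper states for this call equals a −log10 q of 4. In the deposited lists only 18.1% of DN end peaks and 9.60% of Ctrl end peaks reached that value. Unique alignment leaves out repeated sequence, and without local background high input signal can be listed as a peak. The deposited columns hold the position, a score, the fold as a ratio to background, and the p-value and q-value as −log10 p and −log10 q. The lists hold no reads per peak, so the depth behind a peak was recovered from fold and −log10 p by the Poisson formula that the caller was assumed to use. By this, DN peaks began at a mean depth of 7 fragments (scaling 1) and Ctrl peaks at 8 (scaling 0.914).

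The members and lists were chosen with earlier results of these data known. The high end was set by the last listed peak of either list, and the low end by the first coordinate. Distances in the profile were those of peak centres. Overlaps of at least 1 bp were found with bedtools 2.31.1, and covered length is the sum of peak widths. Shares have Clopper-Pearson intervals, medians order-statistic intervals and ratios of numbers exact conditional 95% intervals. No p-value was computed, since each group had 1 library. Intervals came from scipy 1.17.1, tables from pandas 2.3.3 and numpy 2.4.6, and plots from matplotlib 3.10.9, under Python 3.11.15. On simulated data 100% of 5400 peaks were put in the right overlap class and 3 of 3 depths were recovered. The simulated depths used the same formula as the recovery, so this checks the code and cannot check the formula assumed for the caller. The named peaks were the 3 with the highest −log10 q in each list, overall and among specific peaks, the widest and those nearest a chromosome start. The named ends were the 3 with the most and the fewest DN peaks and with the highest and lowest DN to Ctrl ratio. Alternatives were other end widths, stricter −log10 q, merged peaks, other overlaps, matched depth, a shortened DN list, chromosome 4 and each chromosome left out. No gene annotation on GRCz11 was used, so genes and gene lists at the ends were not analysed here.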

Additional observations from a re-analysis of the deposited data

How the results depend on the processing

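Without replicates no setting can be checked against the spread between hearts, and the depth behind a peak limits every comparison of numbers. No paired analysis was possible because DN and Ctrl had 1 library each. Of 98 values recomputed under alternatives other than leaving out a chromosome, 53 stayed within the interval of the reported value. In 8 a ratio lay on the other side of 1, and 3 of these were the Ctrl odds ratio of overlap, whose reported interval includes 1. The DN to Ctrl ratio of the ends over that of the interiors was below 1 in the 10 alternatives run for it, from 0.865 to 0.944, and without each chromosome in turn, from 0.888 to 0.933. Leaving out the low ends of chromosomes 15 and 22 and, for this ratio, the stronger 50% of each list and the low end counted from the first listed peak, were chosen after seeing the data. The q filter below keeps peaks of either list whose −log10 q is 4 or more. Matched depth keeps DN peaks of a mean depth of at least 8 fragments before scaling and all Ctrl peaks, so it can only lower the DN to Ctrl ratio.

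The density of the ends over that of the interiors was above 1 throughout. In DN (1.65) it was 1.997 with ends of 1 Mb, 1.39 with 5 Mb, 1.45 under the q filter, 1.59 with peaks under 1 kb apart merged, 1.71 with chromosome 4, 1.48 without the low ends of chromosomes 15 and 22, and 1.57 to 1.68 without each chromosome. In Ctrl (1.83) it was 2.13, 1.51 and 1.68 in the first 3 of these, 1.70 in the stronger 50% of the list, 1.62 without those 2 ends, and 1.69 to 1.87 without each chromosome. The density of low over high ends was 0.956 in DN and 0.788 in Ctrl under the q filter, 1.16 in DN with merged peaks, 1.03 in DN and 0.997 in Ctrl without those 2 ends, and 1.12 to 1.30 in DN and 1.07 to 1.30 in Ctrl without each chromosome, lowest without chromosome 22 in both.

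Of DN end peaks, 31.6% were Overlapped with 5 Mb, 25.8% under the q filter, 49.5% at matched depth, 14.8% where 50% of both peaks had to be shared, 38.9% where a gap of 1 kb was allowed, and 53.6% after shortening the DN list to the Ctrl number. Of Ctrl end peaks it was 69.5% with 1 Mb, and 92.1%, 57.3%, 27.8%, 73.2% and 54.0% in the last 5 of these. The odds ratio of overlap in DN was 1.0199 with 5 Mb, 1.26 under the q filter and 0.987 where 50% had to be shared. In Ctrl it was 1.08 with 1 Mb, 1.04 where a gap of 1 kb was allowed, 0.854 with 5 Mb, 1.67 under the q filter, 0.847 where 50% had to be shared and 0.846 with the shortened list. Without each chromosome it was 1.03 to 1.12 in DN and 0.899 to 1.01 in Ctrl, lowest without chromosome 22 in both. The median width of DN end peaks was 1202.5 bp under the q filter, 649 bp merged, 769 bp at matched depth and 589 bp without those 2 ends, and that of Ctrl end peaks was 822.5 bp under the q filter. At the ends, the DN to Ctrl ratio was 3.54 under the q filter (716 and 202 peaks), 1.76 merged, 1.05 at matched depth and 0.912 with the shortened list, which by construction has as many peaks as the Ctrl list. Under the q filter both lists were cut, and 202 Ctrl end peaks against 716 DN end peaks limit how many DN peaks can be Overlapped. Apart from this limit and the shortened list, the cause of the changes was not tested.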

Other observations

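The ends of chromosome 4 were left out of the comparisons above. Its low end held 127 DN peaks and 67 Ctrl peaks, a ratio of 1.90 (interval 1.40 to 2.59), and 73.1% of these Ctrl peaks were Overlapped. Its high end held 121 DN peaks and 96 Ctrl peaks, a ratio of 1.26 (interval 0.956 to 1.67), and 54.2% of these Ctrl peaks were Overlapped. With 48 Ctrl peaks per Mb, the high end of chromosome 4 was second in Ctrl to the low end of chromosome 22 among these ends. It was nearly level with the low end of chromosome 15, at 47.5 Ctrl peaks per Mb. In DN its 60.5 peaks per Mb were below the low ends of chromosomes 22 (158) and 15 (115) and the high end of chromosome 11 (66.5).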
